A study of Canis lupus familiaris with 24 samples.

Results

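CTSS, CTSD, NPC2 and DLA-DQA1 encode proteins of the lysosome and of antigen presentation on MHC class II, and their RNA was followed in needle aspirates from the lymph nodes of 4 dogs with B-cell lymphoma. The 4 genes were represented by every non-control probe whose RefSeq transcript belonged to them, which gave 5 of the 43603 probes and 4 of the 832 genes that could be given a symbol. CTSS (probe A_11_P0000019666), CTSD (A_11_P00000515) and NPC2 (A_11_P050371) had 1 probe each. DLA-DQA1 had 2, of which A_11_P052656 is called the brighter and A_11_P0000020178 the dimmer probe below. All 5 probes lay well above background on all 24 arrays, so none was lost to the filter on dim probes. The place of each probe in its transcript was not given in the sources used here.

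Dog 1 was a male Shih Tzu of 10 years, dog 2 a male Doberman of 9 years, dog 3 a castrated male French Bulldog of 3 years and dog 4 a spayed female French Bulldog of 5 years. Cells of a peripheral lymph node were drawn by needle from each dog while its lymphoma was drug-sensitive and again when it was drug-resistant, and the comparison asks which genes differ between these phases within a dog. No drug and no interval between the phases is named in the labels. Each dog and phase formed a group of 3 one-colour arrays, which made 8 groups. Nothing states whether these came from 1 aspirate or several, so the p-values within a dog measure only the spread between arrays, which may be technical. Such aspirates hold every cell type of the node, and in bulk RNA fewer cells of a type and less RNA per cell cannot be told apart.

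Antigen-presenting cells, B lymphocytes among them, take up protein and digest it in acidic endosomes and lysosomes. Cathepsin S (CTSS), a cysteine protease, trims the invariant chain that blocks the groove of new class II molecules, and cathepsin D (CTSD), an aspartic protease, degrades protein in the lysosome. NPC2 is a soluble lysosomal protein that binds cholesterol and hands it to the membrane protein NPC1. DLA-DQA1 encodes the alpha chain of the dog's class II molecule DQ, which pairs with the beta chain from DLA-DQB1 and shows peptides to helper T cells. It belongs to a family of genes that vary in sequence between dogs.

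All 4 genes were lower in the resistant than in the sensitive phase of dog 2, by 2.09-fold to 5.19-fold, and changed by less than 2-fold in each of the other dogs. Levels below are log2 processed signals minus the 75th percentile of their array, so that 0 is a signal at that percentile, and changes are resistant minus sensitive. A change was called when it was at least 2-fold with an adjusted p under 0.05 (limma, Benjamini-Hochberg over all probes). By that rule 5 of 5 probes were called lower in dog 2, where 10.1% of 34550 probes were called lower and 3.53% higher.

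**Figure D1:**
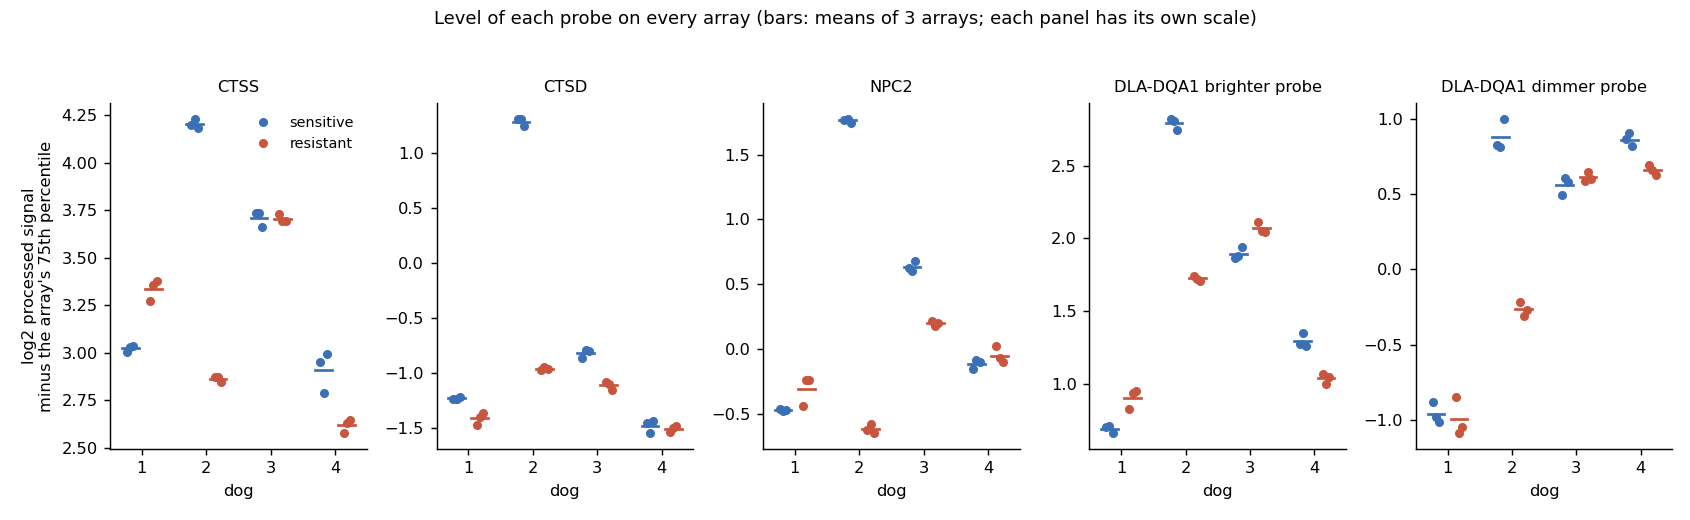
Level of each of the 5 probes (log2 processed signal minus the array's 75th percentile) on every array, by dog and phase; points are arrays, short bars are means of 3 arrays, and each panel has its own scale. The sensitive arrays of dog 2 lie highest in all panels but that of the dimmer DLA-DQA1 probe, where they overlap the sensitive arrays of dog 4.

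CTSD stood at 1.31, 1.31 and 1.24 on the sensitive arrays of dog 2 and at -0.97, -0.95 and -0.96 on its resistant arrays. The sensitive arrays of dog 2 were the only ones above the 75th percentile for this protease. The change was -2.25 (SE 0.03), a 4.75-fold lower level (adjusted p = 1.16e-19). In dog 1 CTSD lay at -1.23, -1.24 and -1.22 and then at -1.47, -1.40 and -1.36, a change of -0.18 (SE 0.03, adjusted p = 0.000221). In dog 3 it lay at -0.86, -0.79 and -0.80 and then at -1.08, -1.10 and -1.15, a change of -0.29 (SE 0.03, adjusted p = 1.25e-06). The phases did not overlap in dogs 1, 2 and 3. In dog 4 they did, with -1.45, -1.54 and -1.43 before and -1.54, -1.49 and -1.48 after (change -0.03, 95% confidence interval -0.10 to 0.05, adjusted p = 0.553). Ordered by their means, the groups ran from sensitive dog 2 (1.29 ± 0.04, SD, n = 3 arrays) through sensitive dog 3 (-0.82 ± 0.04), resistant dog 2 (-0.96 ± 0.01), resistant dog 3 (-1.11 ± 0.04) and sensitive dog 1 (-1.23 ± 0.01) to resistant dog 1 (-1.41 ± 0.06) and both phases of dog 4. The last 3 overlapped with their neighbours and the others did not.

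CTSS stood at 4.20, 4.23 and 4.18 on the sensitive and at 2.87, 2.87 and 2.85 on the resistant arrays of dog 2. The phases did not overlap, and CTSS was 2.54-fold lower in the resistant phase (change -1.34, SE 0.04, adjusted p = 4.01e-15). In dog 1 the order was the opposite, with 3.00, 3.03 and 3.03 on the sensitive and 3.27, 3.36 and 3.38 on the resistant arrays. CTSS was thus higher in the resistant phase of dog 1 with no overlap, by 0.31 (SE 0.04, adjusted p = 4.55e-06). In dog 3 it lay at 3.73, 3.74 and 3.66 and then at 3.73, 3.69 and 3.69, a change of -0.00 (95% confidence interval -0.09 to 0.08, adjusted p = 0.942), and the phases overlapped. In dog 4 it lay at 2.95, 2.79 and 2.99 and then at 2.58, 2.63 and 2.65, a change of -0.29 (SE 0.04, adjusted p = 1.73e-05) with no overlap. Over the 8 groups the mean ran from 4.20 ± 0.03 in sensitive dog 2 to 2.62 ± 0.04 in resistant dog 4. Sensitive and resistant dog 3 overlapped, as did sensitive dog 4 (2.91 ± 0.11) and resistant dog 2 (2.86 ± 0.01). Resistant dog 2 therefore lay within the range of the other dogs for CTSS.

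NPC2 had the largest change of the 4 genes in dog 2, also under each of the 11 alternatives tried, though some of these left the main values unchanged. It stood at 1.77, 1.78 and 1.74 on the sensitive arrays of dog 2 and at -0.62, -0.58 and -0.65 on the resistant arrays. The level thus went from the highest to the lowest of the 8 groups, with a change of -2.38 (SE 0.04, adjusted p = 2.29e-18), or 5.19-fold. In dog 3 NPC2 lay at 0.63, 0.60 and 0.68 and then at 0.22, 0.18 and 0.20, again lower with no overlap (change -0.44, SE 0.04, adjusted p = 2.32e-07). In dog 1 it lay at -0.46, -0.48 and -0.47 and then at -0.44, -0.24 and -0.24, a change of 0.16 (SE 0.04, adjusted p = 0.00503). Within the slide that held both phases of dog 1, the NPC2 change was 0.03 (adjusted p = 0.677). In dog 4 the arrays overlapped, with -0.15, -0.08 and -0.10 before and 0.03, -0.07 and -0.10 after (change 0.06, 95% confidence interval -0.03 to 0.16, adjusted p = 0.275).

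DLA-DQA1, by its brighter probe, stood at 2.82, 2.81 and 2.74 on the sensitive and at 1.74, 1.72 and 1.71 on the resistant arrays of dog 2. Its dimmer probe stood at 0.82, 0.81 and 1.00 and then at -0.21, -0.31 and -0.27. Both probes were lower in the resistant phase with no overlap, by -1.06 (SE 0.04, adjusted p = 1.55e-14) and -1.14 (SE 0.06, adjusted p = 6.17e-12), which is 2.09-fold and 2.21-fold. These were the changes closest to the 2-fold limit. With each array scaled to its median they were -0.92 and -0.998, so neither was called and 3 of 5 probes remained called in dog 2. That scaling moved the median change over all probes of dog 2 from 0.10 to 0.25, and its calls from 1221 higher and 3477 lower to 1833 higher and 3068 lower.

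In the other dogs the brighter DLA-DQA1 probe moved in both directions by less than 2-fold. In dog 1 it lay at 0.71, 0.71 and 0.66 and then at 0.83, 0.94 and 0.96 (change 0.21, SE 0.04, adjusted p = 6.95e-05). In dog 3 it lay at 1.87, 1.88 and 1.94 and then at 2.12, 2.05 and 2.04 (change 0.17, SE 0.04, adjusted p = 0.000627). In dog 4 it lay at 1.28, 1.35 and 1.26 and then at 1.07, 1.00 and 1.05 (change -0.25, SE 0.04, adjusted p = 1.67e-05). The phases overlapped in none of these dogs, with resistant arrays higher in dogs 1 and 3 and lower in dog 4. The dimmer probe lay at -0.88, -0.98 and -1.01 and then at -0.85, -1.09 and -1.04 in dog 1 (change -0.03, adjusted p = 0.641). It lay at 0.49, 0.61 and 0.58 and then at 0.59, 0.65 and 0.60 in dog 3 (change 0.05, adjusted p = 0.505). Its phases overlapped in both of these dogs. In dog 4 it lay at 0.86, 0.90 and 0.82 and then at 0.69, 0.66 and 0.63, lower with no overlap (change -0.20, SE 0.06, adjusted p = 0.00864).

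**Figure D2:**
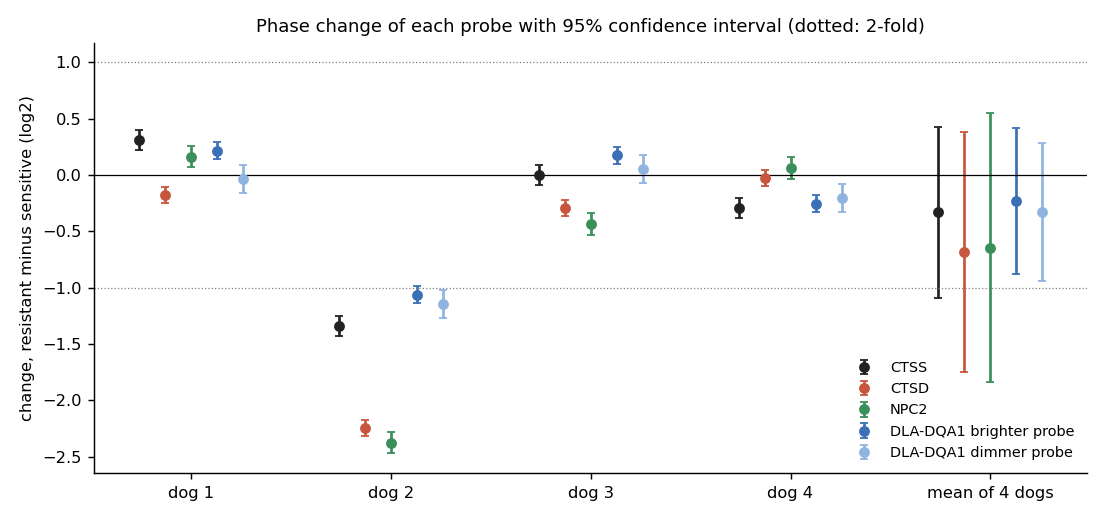
Change of each probe between the phases (resistant minus sensitive, log2) in each dog and as the mean of the 4 dogs; bars are 95% confidence intervals and dotted lines mark a 2-fold change. In dog 2 all 5 points lie between -2.38 and -1.06, and in dogs 1, 3 and 4 they lie between -0.44 and 0.31.

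By the 2-fold rule 0 of 5 probes were called in each of dogs 1, 3 and 4, where 11.3%, 6.74% and 5.34% of all probes were called in either direction. At an adjusted p under 0.05 of any size, 4, 5, 3 and 3 of 5 probes passed in dogs 1 to 4, against 56.8%, 61.7%, 47.7% and 48.1% of all probes. Some of these small changes lost the test with other processing. With normexp and with the authors' value table NPC2 in dog 1 was 0.08 and 0.07 (adjusted p = 0.183 and 0.267), the brighter DLA-DQA1 probe in dog 3 was 0.08 and 0.11 (0.227 and 0.116), and the dimmer probe in dog 4 was -0.05 and -0.06 (0.555 and 0.566). With median scaling CTSD in dog 1 lost it (adjusted p = 0.997), and the dimmer DLA-DQA1 probe passed in dogs 1 and 3 (0.15 and 0.14, adjusted p = 0.0298 and 0.0419). The phases did not overlap for 4, 5, 3 and 3 of 5 probes, against 63.3%, 70.4%, 57.8% and 57.1% of all probes. Small differences between 2 sets of 3 arrays that pass the test were thus common on these arrays, and the counts of members in dogs 1, 3 and 4 were near that background.

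The phase change of each of the 4 genes differed between the dogs (limma F-test of the interaction, adjusted p from 4.34e-17 for CTSD to 9.26e-10 for the dimmer DLA-DQA1 probe). By the same test 80.5% of all probes passed. Like the p-values within a dog, those of this test and of the pairs below measure only the spread between arrays, which may be technical. In tests of pairs of dogs from the same fit, dog 2 differed from each of the other 3 for all 5 probes. The share of all probes that did so was not counted, so this does not set these genes apart. For CTSD the change in dog 2 was below that in dog 1 by -2.07 (SE 0.05). For NPC2 the corresponding difference was -2.54 (SE 0.06), for CTSS -1.66 (SE 0.06), and for DLA-DQA1 -1.28 (SE 0.05) and -1.11 (SE 0.08). Differences among dogs 1, 3 and 4 were smaller. The largest of them were for CTSS between dogs 4 and 1 (-0.61, SE 0.06, adjusted p = 1.08e-07) and for NPC2 between dogs 3 and 1 (-0.60, SE 0.06, adjusted p = 2.97e-07).

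With the dog as the unit (n = 4 dogs, each dog a block), no change passed the test. The mean change was -0.69 for CTSD (95% confidence interval -1.75 to 0.38), -0.65 for NPC2 (-1.84 to 0.55), -0.33 for CTSS (-1.09 to 0.43), and -0.23 (-0.88 to 0.41) and -0.33 (-0.94 to 0.28) for DLA-DQA1. Adjusted p values (limma) ran from 0.839 to 0.860. Of all 34550 probes, 0 (0%) passed after adjustment and 2122 (6.14%) had an unadjusted p under 0.05, among them 0 of the 5. A fit of the 24 arrays with the group as a random block gave 856 calls, again without the 5 probes (lowest adjusted p = 0.0560). Without dog 2 the mean changes were -0.17, -0.07, 0.01, 0.04 and -0.06 in the same order. The mean over dogs rested on dog 2.

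The level of the 4 genes was also high in the sensitive phase of dog 2 against all other groups. For 5 of 5 probes that group had the highest of the 8 means, as did 13.4% of all probes. For the dimmer DLA-DQA1 probe its arrays overlapped those of sensitive dog 4 (0.88 ± 0.10 and 0.86 ± 0.04). Averaged over the phases, 0 of 5 probes passed the F-test of the dog over 8 means (adjusted p 0.0876 to 0.607), against 5.97% of all probes. With the authors' value table the dimmer DLA-DQA1 probe passed it (adjusted p = 0.0381).

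The sensitive arrays of dog 2 stood apart in overall signal. Their 75th percentile of processed signal was 1042 to 1118, against at most 952 in the other groups, and their median was 110.05 to 123, against 72.2 to 92.2. The part of this in the results was not tested beyond the change of scaling given above. Arrays of a group correlated at r from 0.984 to 0.996, and 71.0% to 80.9% of the spots on each array were well above background. The arrays of dog 2 lay on 2 slides, and on the slide with both phases, which held 1 sensitive array, the changes were -2.20 for CTSD, -2.36 for NPC2, -1.32 for CTSS and -1.02 and -1.26 for DLA-DQA1. Each of these changes was at least 2-fold. In dog 4 the phases were on different slides, and its resistant arrays were scanned in a session of their own, so phase, slide and scan session cannot be told apart.

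Both probes of DLA-DQA1 gave like changes in dog 2 but not the same order of dogs. By the brighter probe both groups of dog 1 were the lowest (0.69 ± 0.03 and 0.91 ± 0.07), followed by dog 4 (1.04 ± 0.03 resistant and 1.30 ± 0.05 sensitive). By the dimmer probe the means of dog 4 lay above those of dog 3, with its sensitive phase at 0.86 ± 0.04 and its resistant phase at 0.66 ± 0.03, the latter overlapping resistant dog 3 (0.61 ± 0.03). The difference between the 2 probes on the same array was 1.27 to 1.53 in dog 3, and 0.35 to 0.45 in dog 4. In dogs 1 and 2 it was 1.59 to 2.03. In dog 1 the resistant array on the slide of the 3 sensitive ones (1.59 to 1.69) stood at 1.68. The others, on the next slide, stood at 2.02 and 2.00. In dog 2 the difference did not go by slide in this way. Its sensitive array beside the resistant ones (1.96 to 2.03) stood at 1.74, and its sensitive arrays on the other slide at 2.00 and 1.99. The part of the slide in this difference was not tested. Probes differ in brightness, so the size of this difference has no meaning by itself, but its mean over a dog ran from 0.41 in dog 4 to 1.95 in dog 2, a range of 1.54. Of 3942 transcripts with 2 probes, 109 (2.77%) had a larger range over dogs, and the median range was 0.27. Between the phases of a dog the difference moved by at most 0.25, and the median over these transcripts was also 0.25. Pairs of probes of other class II genes had ranges over dogs of 0.87 (DLA-DQB1, the beta chain of DQ), 0.82 (HLA-DRB1, a beta chain of DR), 0.21 (DLA-DOB, a chain of the modulator DO) and 0.13 (DLA-DRA, the alpha chain of DR).

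**Figure D3:**
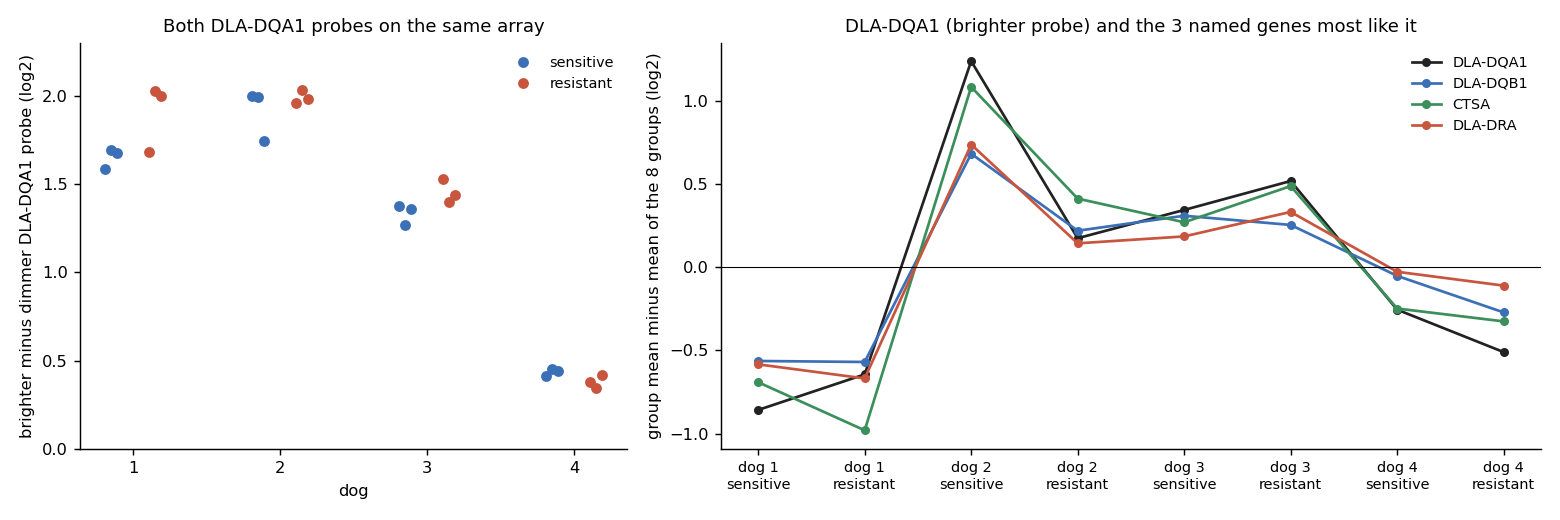
Left, the brighter minus the dimmer DLA-DQA1 probe on each array (log2), by dog and phase; right, group means of DLA-DQA1 (brighter probe), DLA-DQB1, CTSA and DLA-DRA, each minus its own mean over the 8 groups (log2). The difference lies between 0.35 and 0.45 in dog 4 and between 1.27 and 2.03 elsewhere, and the 4 genes peak together in sensitive dog 2.

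Among the named genes measured in at least 4 groups (629 besides the gene itself), those whose 8 group means followed DLA-DQA1 most closely were DLA-DQB1 (r = 0.97), the lysosomal protease CTSA (r = 0.96) and DLA-DRA (r = 0.95). For CTSS they were RAB5A, a GTPase of early endosomes (r = 0.98), and the chemokines CXCL10 (r = 0.89) and CCL21 (r = 0.86). For CTSD they were the peroxidase GPX1 (r = 0.96), CD38, an ectoenzyme of lymphocytes (r = 0.94), and the T cell coreceptor CD8A (r = 0.94). For NPC2 they were CD38 (r = 0.95), the cytokine IL18 (r = 0.95) and the T cell receptor partner CD28 (r = 0.94). These are descriptions over 8 means that share dogs and arrays. Leaving out dog 2 (6 means) kept r at 0.96 for DLA-DQB1 and 0.98 for RAB5A, but took CTSD and CD8A to 0.13. DLA-DQB1 then still ranked 1 for DLA-DQA1.

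Some of the genes most like the members were called in dog 2 and others were not. RAB5A changed by -0.63, GPX1 by -0.87, DLA-DQB1 by -0.46, CTSA by -0.67 and DLA-DRA by -0.59, none of them called. CD38 (-4.22), IL18 (-2.71), CCL21 (-2.80), CXCL10 (-8.40), CD8A (-4.84) and CD28 (-5.37) fell and were called. Of all named genes 19.5% were called lower in dog 2, but these genes were picked by means that include those of dog 2.

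The 5 lists of lysosomal genes held 108 genes with the members, of which 24 were measured with a symbol. In dog 2, 19 of these 24 had a change below 0. By the 2-fold rule 6 were called lower (CTSD, CTSS, NPC2, CTSK, ARSA and MITF) and 1 higher (GLB1), where 19.5% of 718 named genes were called lower and 4.18% higher. The median change of the 24 was -0.65, against -0.07 for all named genes and 0.10 for all probes. Without the members 3 of 21 were called lower and 1 higher, and 16 of 21 had a change below 0, with a median of -0.59. In dogs 1, 3 and 4 the calls among the 24 were 1, 1 and 0, where 17.1%, 12.7% and 2.37% of the named genes were called lower and 4.87%, 1.95% and 5.15% higher. Among named genes of the lysosome the share called lower in dog 2 was thus near the background once the members were left out.

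Among the proteases, all 5 measured of 20 had lower levels in dog 2, and 3 were called, CTSD, CTSS and CTSK. Without the members 1 of 3 was called (median -0.75), where 19.5% of named genes were called lower. CTSK, a collagen-degrading cysteine protease, changed by -1.23 (SE 0.04, adjusted p = 2.66e-14) in dog 2 and by 0.40, -0.08 and 0.09 in dogs 1, 3 and 4. In the RefSeq gene order CTSK is a protein-coding neighbour of CTSS, and these 2 genes had changes of the same sign in dogs 1 and 2. In dog 3 CTSS changed by -0.00 and CTSK by -0.08, and in dog 4 the signs were opposite (-0.29 and 0.09). CTSA, a carboxypeptidase that also shields lysosomal glycosidases, changed by -0.67, and the peptidase TPP1 by -0.75 (SE 0.21), neither called.

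Of the genes of lipid and sterol handling, 10 of 24 were measured. NPC2 and ARSA, a sulfatase of myelin lipids, fell in dog 2 (ARSA -1.22, SE 0.03, adjusted p = 1.37e-15), while GLB1, the lysosomal beta-galactosidase, rose by 1.35 (SE 0.03, adjusted p = 4.29e-18). All 9 probes of GLB1 were higher there, from 0.76 to 1.35. NPC1, the membrane partner of NPC2, changed by -0.44 in dog 2 and by 0.44 in dog 3, so it was not called where NPC2 fell 5.19-fold. CLN8 changed by -0.80 in dog 1 and by 0.03 in dog 2.

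None of the 6 measured sugar hydrolases of 22 was called in dog 2, although 5 of 6 had lower values (median -0.84). FUCA1, which removes fucose, changed by -0.99 by its brightest probe and by -1.06 by its other probe. SGSH, IDS and GUSB, which degrade glycosaminoglycans, changed by -0.93, -0.86 and -0.83. SGSH was the only gene of the 5 lists called in dog 1 (-1.05, SE 0.03, adjusted p = 4.09e-15). Over 3 other scalings (median, quantile, and normexp with quantile) its change there ran from -1.03 to -0.87, the last of which is under 2-fold, and that of FUCA1 in dog 2 from -1.22 to -0.84. MITF, a transcription factor related to TFEB, fell in dog 2 (-3.10, SE 0.08, adjusted p = 1.74e-16), with -2.95 to -1.76 over the same scalings. SLC11A1, a metal transporter of phagocyte lysosomes, fell in dog 3 (-2.44, SE 0.06, adjusted p = 3.82e-16), the only call of the 5 lists there, and there was 0 in dog 4. IGF2R, the receptor that sorts lysosomal enzymes and the only measured gene of its list of 15, changed by -0.54 in dog 2.

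**Figure D4:**
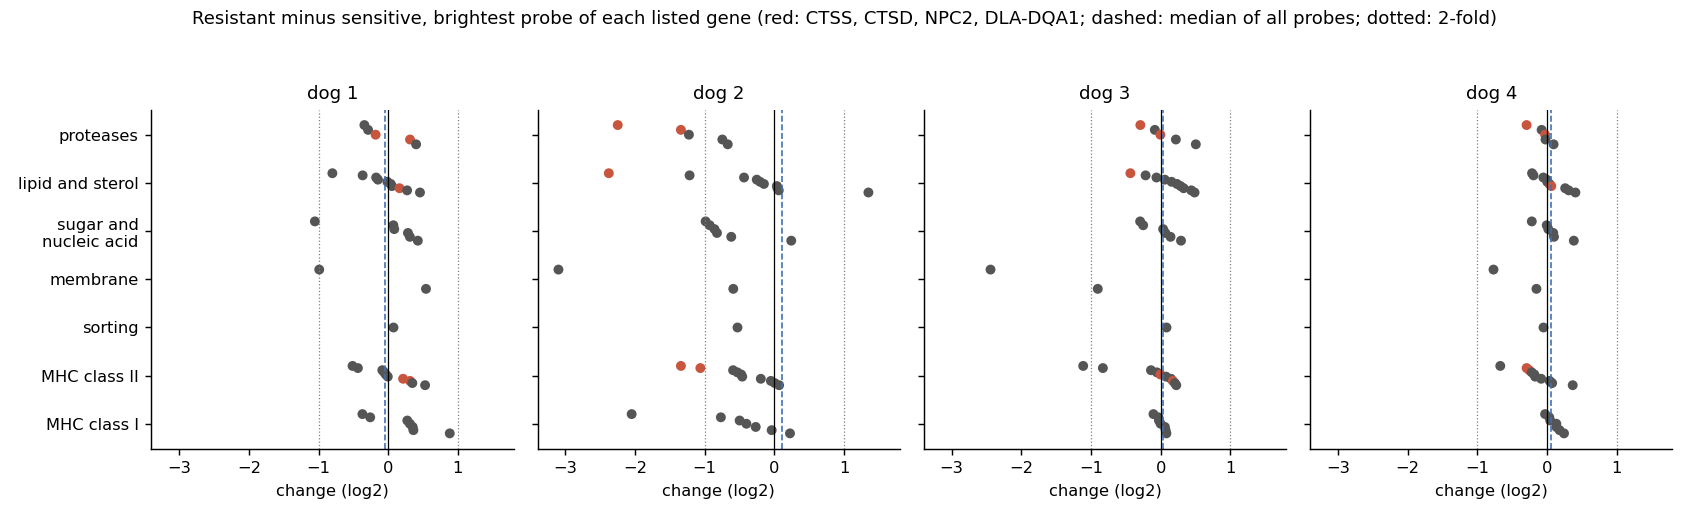
Change between the phases (resistant minus sensitive, log2) of the brightest probe of each measured gene of the lysosomal and MHC lists, by dog; red points are CTSS, CTSD, NPC2 and DLA-DQA1, the dashed line is the median of all probes and dotted lines mark 2-fold. In dog 2 the red points lie from -2.38 to -1.06, and the medians of the protease, class II and class I lists are -1.23, -0.47 and -0.40.

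Of 32 genes of MHC class II presentation, 10 were measured. In dog 2, 8 of these had a change below 0 (median of the list -0.47), and 2 of the 10, CTSS and DLA-DQA1, were called lower. That share is near the 19.5% of named genes called lower there, and without the members 0 of 8 were called (median -0.33). The other chains were not called. DLA-DRA changed by -0.59, DLA-DMA, a chain of the peptide loader DM, by -0.53, DLA-DQB1 by -0.46 and DLA-DOB by -0.20. HLA-DRB1 changed by 0.00 by its brightest probe and by -0.59 to 0.00 over its 3 probes. Over the 3 other scalings DLA-DRA ran from -0.99 to -0.45 and DLA-DQB1 from -0.83 to -0.32, still under 2-fold. The costimulatory ligand CD86 fell in dog 3 (-1.11, SE 0.03, adjusted p = 6.68e-16), where the brighter DLA-DQA1 probe was 0.17 higher. CD80 changed by -0.83 in dog 3. In dogs 1 and 4 there was 0 call in this list by the brightest probe of each gene. The other probe of CD80 changed by -1.31 in dog 1. Of 21 class I genes 7 were measured, and DLA-79, a class I gene, fell in dog 2 (-2.05, SE 0.08, adjusted p = 2.16e-13). DLA88 and DLA-64 changed by -0.77 and -0.50 there, and the loading protein TAPBP by 0.88 in dog 1. The 3 probes of DLA-64 ran from -1.12 to -0.50 in dog 2. DLA88 in dog 2 and TAPBP in dog 1 passed 2-fold under 1 or more of these scalings (-1.19 and 1.06 at the widest).

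Markers of other cells of the node moved with the phase as well. As the sum of the measured markers of a list, in multiples of the 75th percentile of the array, T cell markers (5 of 17 genes: CD4, CD8A, CD28, CTLA4 and ICOS) stood at 4.41 to 4.65 in sensitive dog 2 and at 0.273 to 0.284 in resistant dog 2. Elsewhere they stood at 0.248 to 0.537. The markers of NK and cytotoxic cells (KLRD1 and CCL5, 2 of 13) stood at 36.1 to 37.0 and then at 0.457 to 0.510 in dog 2. This sum was 1.23 to 1.40 and then 0.188 to 0.212 in dog 1, and 0.691 to 0.757 and then 0.355 to 0.373 in dog 3. In dog 4 it was 0.399 to 0.494 and then 0.492 to 0.572. Of these 2 genes, 2 were called lower in dog 1, 1 in dog 3 and 0 in dog 4. Of all named genes 17.1%, 12.7% and 2.37% were called lower in dogs 1, 3 and 4, and 19.5% in dog 2. On the log2 scale CCL5 stood at 5.14 and KLRD1 at 0.29 in sensitive dog 2, so the sum there was mostly CCL5. Each was called lower in dog 2 (CCL5 -6.24, KLRD1 -6.42). Both lists thus had their highest level in the group where the 4 genes were highest. ICOS in resistant dogs 1, 2 and 3, CD28 in resistant dog 2 and CTLA4 in resistant dog 1 were on no array well above background. The part of these cells in the change of CTSS, CTSD, NPC2 and DLA-DQA1 was not tested.

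Macrophages, which are rich in lysosomes, were followed by CD163, FCGR1A, C5AR1, ADGRE1 and ADGRE2 (5 of 23 markers). Their sum was 1.16 to 1.17 and then 1.05 to 1.07 in dog 2. It was 1.97 to 2.01 and then 0.746 to 0.781 in dog 1, 0.882 to 0.902 and then 0.278 to 0.290 in dog 3, and 0.219 to 0.226 and then 0.188 to 0.206 in dog 4. The macrophage sum was thus lower in the resistant phase of each dog, but its genes did not all move that way. In dog 2 FCGR1A was called higher (1.62) and C5AR1 lower (-2.18). In dog 4 CD163 (0.33), FCGR1A (0.46) and ADGRE1 (0.49) had values above 0. The part of macrophages in the changes of the 4 genes was not tested. Neutrophil markers (CAMP, MMP9, CXCR2 and ELANE, 4 of 13) stood at 0.0922 to 0.144 and then at 1.09 to 1.13 in dog 2, at 2.16 to 2.35 and then 0.239 to 0.296 in dog 1, at 3.17 to 3.27 and then 0.121 to 0.159 in dog 3, and at 0.479 to 0.591 and then 0.429 to 0.449 in dog 4. These genes did not all move with their sum. ELANE was called higher in dog 1 (1.44), where CAMP (-5.46), MMP9 (-1.97) and CXCR2 (-2.17) were called lower. In dog 3 those called lower were CAMP (-5.41), MMP9 (-4.91) and ELANE (-2.11), while CXCR2 changed by 0.00. In dog 2 CAMP (4.49) and MMP9 (2.52) were called higher, and CXCR2 (1.05) and ELANE (0.07) were not. The lowest and highest of the 3 MMP9 probes changed by -0.03 and 2.52 there, and by -0.22 and 2.71 in dog 4. Stroma markers (COL1A1, COL1A2, DCN, BGN, PDGFRB and CXCL12, 6 of 12) went from 6.99 to 7.38 down to 2.48 to 2.76 in dog 2. Their sum was also lower in the resistant phase of the other 3 dogs. COL1A2 stood at 2.71 (log2) in sensitive dog 2 and made up most of the sum there. Its 6 probes changed by -1.57 to -0.17 in dog 2. Those of COL1A1 lay on both sides of 0 in every dog (-1.48 to 0.83 in dog 1). PDGFRB changed by 0.25, -0.05, 0.01 and -0.19 in dogs 1 to 4, and CXCL12 was called lower in each. Dendritic cell markers (FLT3 and CD1C, 2 of 15) summed to between 0.143 and 0.343 throughout. The changes of their brightest probes had opposite signs in every dog. By its other probe CD1C changed by -0.54 in dog 2, the same sign as FLT3. FLT3 changed by -1.09, -0.73, -1.36 and -0.79 in dogs 1 to 4 (called lower in dogs 1 and 3) and CD1C by 0.23, 0.56, 1.12 and 0.63 (called higher in dog 3). ADGRE2 in resistant dogs 1 and 4, ADGRE1 in sensitive dog 3 and DCN in resistant dog 2 were on no array well above background.

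Of 14 B cell markers only MS4A1, which encodes CD20, was measured with a symbol. It stood at 10.3 to 20.3 in all groups and changed by -0.29, 0.16, 0.21 and -0.28 in dogs 1 to 4. It was well above background in each group of these dogs with B-cell lymphoma, and the part of B cells in the changes of the 4 genes was not tested.

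**Figure D5:**
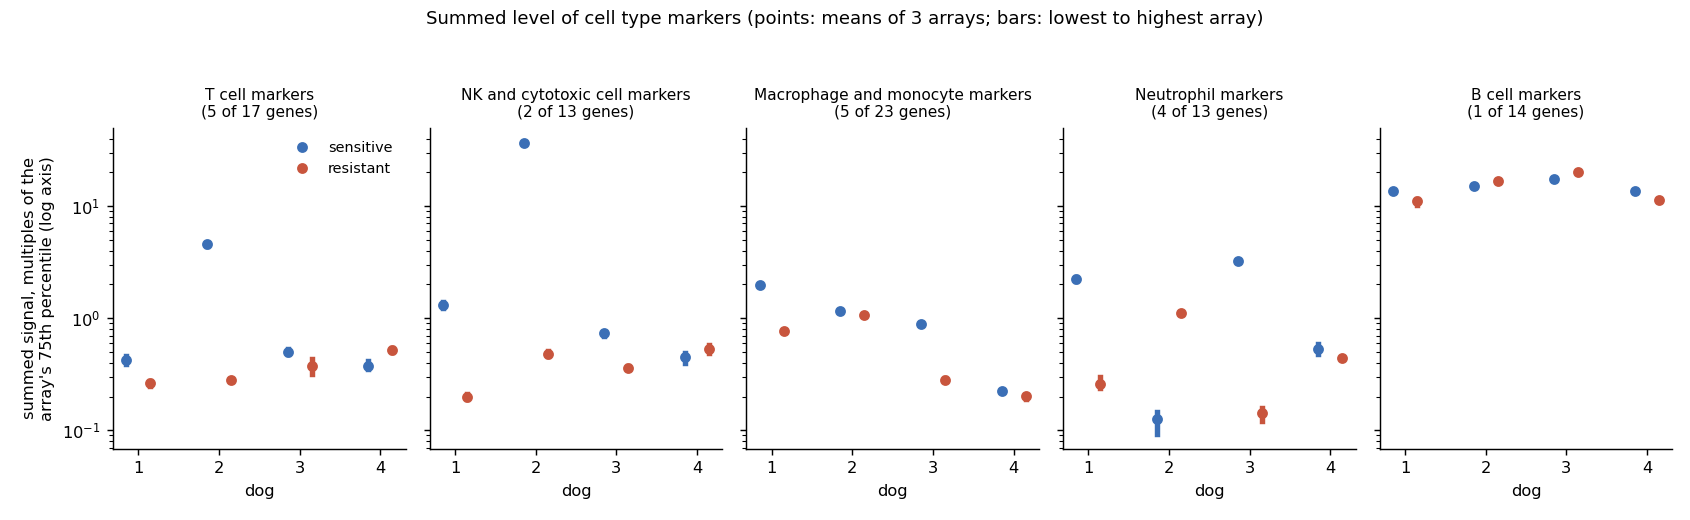
Summed signal of the measured markers of 5 cell types (multiples of the array's 75th percentile, log axis), by dog and phase; points are means of 3 arrays and bars run from the lowest to the highest array. T cell and NK cell markers stand out in sensitive dog 2, at 4.41 to 4.65 and 36.1 to 37.0, the latter mostly CCL5. MS4A1, the B cell marker, lies between 10.3 and 20.3 in all groups.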

How the data were processed

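Groups were taken from the sample titles. The authors deposited spot intensity as Agilent Feature Extraction 10.7.3.1 output (per the file headers; the submitters' processing notes name the same version), already background-subtracted and detrended within each array. The deposited value table equalled the raw median intensity on all 24 arrays (largest difference 0; column medians 97 to 141), so it is linear, uncentred and not normalised. The genome build was not given in the sources used here. Symbols came from a RefSeq gene table, assembly UU_Cfam_GSD_1.0, used for names and gene order alone: 832 of 35908 identifiers matched.

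Values were log2 of the processed signal minus each array's 75th percentile. Control and outlier spots were left out, repeated spots averaged, and 34550 of 43603 probes kept (well above background on all 3 arrays of a group). Each probe was fitted with limma 3.58.1 (R 4.3.3), two-sided: within dogs on 24 arrays in 8 groups, across dogs on 8 means, blocked by dog, since both phases come from the same animal. A gene of a list was represented by its brightest probe, and a marker with repeated spots counted as well above background on an array where most of its spots were. All member probes were described. Of each list the 4 measured genes of largest absolute change in any dog were named (DLA-DRA, DLA-DMA, DLA-DQB1, DLA-DOB, HLA-DRB1, NPC1 and CTSA after their values were seen), and for each member the 3 genes of highest r over the 8 means. The members and lists were chosen with earlier results of these data known. Scripts were tested on simulated data. Alternatives covered scaling, background correction (normexp, offset 50, on the median signal, chosen after seeing the data because the planned mean signal was not in the files used), dim probes, outlier spots, slide, replicate number, and arrays or dogs left out. The number of arrays limits the precision.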

Additional observations from a re-analysis of the deposited data

Results flagged for a closer look

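The change of CTSD in dog 2 lay apart from those of the other 3 dogs: the gap to its nearest neighbour was 0.8806 of the whole range over the 4 dogs. Of 15 such sets of 4 values (changes, sensitive means and resistant means of 5 probes) it was the 1 past the 95% limit, and chance alone passes about 1 in 20.

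The phase change differed between the dogs for all 5 probes by the interaction F-test (limma, adjusted p), at 4.34e-17 for CTSD, 3.43e-16 for NPC2, 1.64e-13 for CTSS, and 3.36e-13 and 9.26e-10 for the brighter and the dimmer DLA-DQA1 probe. The changes ran from -2.25 to -0.03 for CTSD, from -2.38 to 0.16 for NPC2, from -1.34 to 0.31 for CTSS, and from -1.06 to 0.21 and -1.14 to 0.05 for DLA-DQA1, with dog 2 lowest each time. As 80.5% of all probes passed this test, it does not set these genes apart. Its p-values measure only the spread between arrays, which may be technical.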

How the results depend on the processing

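In dog 2 the 5 changes stayed negative under 11 alternatives, from -2.28 to -2.10 for CTSD, -2.43 to -2.23 for NPC2, -1.55 to -1.20 for CTSS, and -1.19 to -0.92 and -1.26 to -0.998 for DLA-DQA1. Not all of the 11 moved these values. Keeping outlier spots, either change of the filter on dim probes and the replicate block left them as in the main fit. Slide as a block and the fit within the slide gave the same value for each probe. Median scaling left 3 of the 5 called. With any 1 array of a dog left out, 5 were called in dog 2 and 0 in the other dogs. Calls over all probes, in either direction, then numbered 4263 to 4969 of 34550 in dog 2. They were 3299 to 4466, 2154 to 2853 and 1523 to 2255 in dogs 1, 3 and 4. Small changes turned sign, and the cause was not tested. CTSD in dog 1 was 0.00033 with median scaling, and in dog 4 it was 0.044 with normexp and 0.068 with the value table. CTSS in dog 3 was 0.084 with median scaling, 0.019 with slide as a block or within the slide, 0.014 with slide as a random block, and -0.029 to 0.0075 with an array left out. The dimmer DLA-DQA1 probe in dog 1 was 0.15 with median scaling, 0.017 with quantile normalisation, 0.11 with slide as a block or within the slide, 0.034 with slide as a random block, and -0.11 to 0.013 with an array left out. Leaving out 1 dog moved the mean over dogs to between -0.55 and 0.0051 for CTSS and between -0.38 and 0.044 for the brighter DLA-DQA1 probe; the values above 0 are those without dog 2.

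Over all probes, calls in dogs 1 to 4 numbered 3906, 4698, 2327 and 1845. They were 998, 1879, 707 and 222 with normexp, 1518, 2623, 1048 and 298 with the value table, and 1800, 2612, 1040 and 539 with the filter set to all 24 arrays, where fewer probes were tested. Dog 4 had 3021 calls with no filter. Across dogs, the random block for the group gave 856.

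Replicate numbers did not pair the arrays (r of deviations -0.12 to 0.09, 0 of 12 over 0.1). With a replicate block, calls were 3771, 4593, 2256 and 1735, and those of the members did not change (5 in dog 2, 0 in dogs 1, 3 and 4). All 5 probes lay well above background on all arrays.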

Other observations

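The 4 genes did not follow each other equally over the groups. Over the 8 group means, which share dogs and arrays, CTSD and NPC2 had r = 0.87, CTSS and NPC2 0.83, and CTSD and the brighter DLA-DQA1 probe 0.82. The dimmer DLA-DQA1 probe had r = 0.28 with CTSS and 0.35 with CTSD, and r = 0.63 with the brighter probe of its own gene. Over the 6 means without dog 2, CTSS and CTSD had r = 0.82, NPC2 and the brighter DLA-DQA1 probe 0.88, and CTSS and the dimmer probe -0.01.

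Which genes ranked first beside a member changed with dog 2. Without it, CD86 came first for CTSD (r = 0.99, against 0.70 over 8 means), VNN1, an enzyme that releases pantothenate, for NPC2 (0.98 against 0.86) and ACTR1A, a subunit of dynactin, for CTSS (0.98 against 0.54). DLA-DMA had r = 0.96 with DLA-DQA1 over 6 means and 0.95 over 8. The ranking without dog 2 was chosen after seeing the data.

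CXCL10, an interferon-induced chemokine, was second for CTSS over the 8 means. It changed by -8.40 in dog 2 and by 2.88 in dog 1, where CTSS changed by -1.34 and 0.31.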
